A study of Mus musculus with 66 samples.

Results

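The miRNAs described here are the miR-200 family, miR-203 and miR-205, which were read in mouse plasma. The members were chosen by name as the guide arms of these hairpins, namely mmu-miR-200a-3p, mmu-miR-200b-3p, mmu-miR-429-3p, mmu-miR-200c-3p, mmu-miR-141-3p, mmu-miR-203-3p and mmu-miR-205-5p (mmu for mouse), and they were 7 of the 1826 miRNAs listed in the table. The study asked whether small RNA circulating in the blood of mice could mark hepatocellular carcinoma (HCC). Plasma came from 13 male C3H mice, an inbred strain with a high rate of spontaneous liver tumors, and was collected by cardiac puncture at necropsy. The labels place all 13 mice, with or without a tumor, more than 12 months after radiation and at day 0 before tumor detection, and they give no age. The HCC group held 8 mice and the non-HCC group 5. By the methods the tumors were spontaneous in some mice and radiation-induced in others, but the labels do not say which mouse had which, so the 2 kinds and the radiation history cannot be told apart here. Each mouse gave 1 library. A second table, on F2 mice bred from C3H and BALB/c parents, was not analysed here.

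The miR-200 family is known for holding cells in an epithelial state, because its members repress the transcription factors ZEB1 and ZEB2, which switch epithelial genes off during epithelial-mesenchymal transition. Most miRNAs pair with their targets through the seed, a short run of bases near the 5′ end, so that members with the same seed share most predicted targets. miR-203 is abundant in stratified epithelium and represses the progenitor factor p63 in keratinocytes, and miR-205 is typical of basal epithelial cells and also represses ZEB factors. Hepatocytes are rich in miR-122 and are not regarded as a main source of the miR-200 family, which in the liver is typical of bile duct cells. Plasma collects miRNAs from blood cells, vessel walls and many organs.

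The mature sequences are given because the seeds divide the family across its 2 gene clusters. They were taken from the RefSeq annotation of GRCm38.p6, in which all 7 members were found. They run 5′ to 3′, and the capitals mark the seed, bases 2 to 8. The first 3 are made from the cluster on chromosome 4 and the next 2 from the cluster on chromosome 6.
mmu-miR-200a-3p: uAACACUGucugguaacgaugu
mmu-miR-200b-3p: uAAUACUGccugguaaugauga
mmu-miR-429-3p: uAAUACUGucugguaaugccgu
mmu-miR-200c-3p: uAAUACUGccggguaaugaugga
mmu-miR-141-3p: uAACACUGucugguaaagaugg
mmu-miR-203-3p: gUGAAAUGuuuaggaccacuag
mmu-miR-205-5p: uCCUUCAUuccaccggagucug

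Each cluster encoded both seeds. The seed AACACUG was shared by miR-200a-3p and miR-141-3p, the seed AAUACUG by miR-200b-3p, miR-429-3p and miR-200c-3p, and no other mature mouse miRNA in the reference table carried either. Positions are counted from 1 at the 5′ end, with the base of the first-named miRNA written first. The seeds differed by the single substitution U4C, from miR-200b-3p to miR-200a-3p. Outside the seed, miR-200b-3p and miR-200c-3p differed by U11G and A22G and by 1 base in length, and miR-200a-3p and miR-141-3p by C17A and U22G. How reads that fit both members of such a pair were assigned is not given in the sources used here, so any exchange of reads within these 2 pairs is uncertain.

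On GRCm38 the genes Mir429, Mir200a and Mir200b lay within 1846 bases of chromosome 4, from 156053905 to 156055750 on the minus strand, inside an intron of Ttll10, a protein-coding gene on the same strand. Mir429 also lay in an exon of the noncoding transcript Gm13648, and Mir200a and Mir200b lay in an intron of it. The genes Mir141 and Mir200c lay within 477 bases of chromosome 6, from 124717914 to 124718390 on the minus strand, in an intron of the noncoding antisense gene Gm15884. Mir141 also lay in an exon of Gm29008 on the same strand. Mir203 lay between genes on chromosome 12, from 112130880 to 112130955 on the plus strand. Mir205 lay on chromosome 1, from 193507463 to 193507530 on the minus strand, in an exon of the lincRNA 4631405K08Rik.

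Reads were counted as unique molecular identifiers (UMIs), so that copies made in PCR count once. Depth was 9513136 to 14247488 miRNA UMIs per HCC library and 10467560 to 13962539 per non-HCC library. Levels were set on 2 scales. The spike-in scale divides by the mean of UniSP2 and UniSP4, synthetic RNAs read in every library. UniSP2 made up nearly all of that mean and ranged from 165794 to 938898 UMIs with HCC and from 364466 to 731761 without. The TMM scale, the trimmed mean of M-values, centres each library on the bulk of its miRNAs. The median log2 fold change of all miRNAs tested, HCC against non-HCC with positive values higher in HCC, was 0.78 on the spike-in scale and 0.26 on the TMM scale, and every direction below is read against that shift. The HCC libraries held 3 pairs, mice 1 and 6, 2 and 5, and 3 and 7, that were more alike than any others. The median absolute log2 difference between the libraries of a pair was 0.128 for mice 1 and 6, 0.180 for mice 2 and 5 and 0.174 for mice 3 and 7, against at least 0.519 in the other 25 HCC pairs and 0.223 in the closest non-HCC pair. These differences exceeded counting error, which does not show that the libraries of a pair are independent. The 8 libraries were kept apart because the labels call each sample a separate mouse. Results were also computed with each pair summed, which leaves 5 HCC libraries. The markers of other cell types were present in all groups. All 6 red cell, 5 platelet and leukocyte, 5 liver and 5 muscle miRNAs listed for this purpose had UMIs, and none was at 0 in all mice.

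All 7 members had UMIs in all 13 mice and passed the filter on low values. The cluster on chromosome 6 was lower in HCC plasma relative to the bulk of miRNAs, and miR-200c-3p had fewer UMIs in each of the 8 HCC mice than in any non-HCC mouse. The cluster on chromosome 4 had no common direction: 2 alike HCC mice held by far the most of it and other HCC mice the least. The member miR-205-5p was called lower on the TMM scale but not on the spike-in scale, with a call lost without non-HCC mouse 4, and miR-203-3p was not called on either scale.

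**Figure D1:**
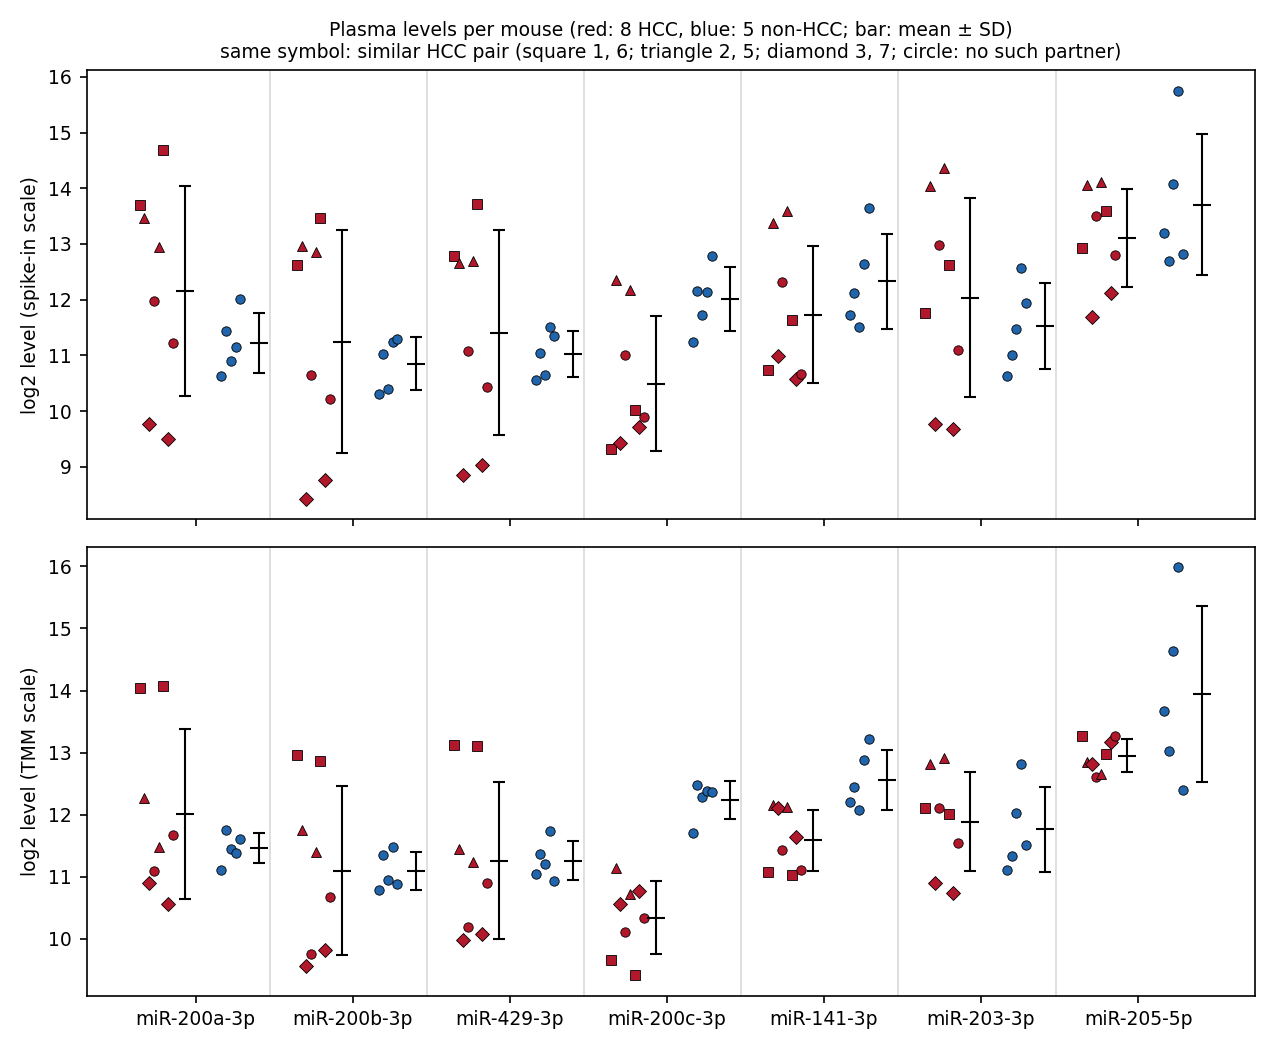
The log2 level of each member is plotted for every mouse on the spike-in scale (top) and the TMM scale (bottom), with HCC mice in red, non-HCC mice in blue, and the mean ± SD beside each group. Squares, triangles and diamonds mark the 3 pairs of alike HCC libraries. On the TMM scale all 8 HCC mice lay below all 5 non-HCC mice for miR-200c-3p.

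mmu-miR-200c-3p, which represses ZEB1 and ZEB2, had 735, 1920, 1265, 1623, 1607, 621, 1641 and 1357 UMIs in HCC mice 1 to 8, and 3681, 6562, 4505, 5646 and 5373 UMIs in non-HCC mice 1 to 5. The 2 groups did not overlap. On the TMM scale its log2 level averaged 10.34 ± 0.59 across the 8 mice with HCC against 12.24 ± 0.31 across the 5 without (SD), and the exact permutation test gave the smallest p that 8 against 5 mice allow (two-sided p = 0.000777, not adjusted). All 8 HCC mice lay below all 5 non-HCC mice, which 1.17% of the 1452 miRNAs tested did on this scale. edgeR's quasi-likelihood test on the TMM scale gave a log2 fold change of -1.83 (SE 0.29, Benjamini-Hochberg adjusted p = 0.00157), and the call held without each mouse in turn, with adjusted p between 0.00107 and 0.00807. Over 24 alternatives of the spike-in fit its log2 fold change lay between -1.85 and -0.89. It was called in 4 of these 24, all on the TMM scale or with DESeq2's own size factors. In the others it was not called, with adjusted p up to 0.513 by edgeR.

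On the spike-in scale the level of miR-200c-3p averaged 10.49 ± 1.21 across the 8 mice with HCC against 12.01 ± 0.57 across the 5 without (SD). There 6 of 8 HCC mice lay below all non-HCC mice, while mice 2 and 5, the libraries with the fewest UniSP2 UMIs, lay among them (exact permutation test, two-sided p = 0.0334, not adjusted). edgeR gave a log2 fold change of -1.13 on the spike-in scale (SE 0.61, adjusted p = 0.337). The direction was the same on both scales, but the call was made only on the TMM scale among these edgeR tests. With the alike HCC libraries summed, edgeR still called miR-200c-3p on the TMM scale (log2 fold change -1.83, adjusted p = 0.00817), where 0.571% of miRNAs tested were called lower, and without HCC mice 1 and 6 the adjusted p was 0.00243, where 3.13% were called lower.

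mmu-miR-141-3p, its partner in the cluster, had 1963, 3883, 3697, 4052, 4257, 1910, 2999 and 2321 UMIs in HCC mice 1 to 8, and 5161, 6453, 3879, 7991 and 9724 UMIs in non-HCC mice 1 to 5. The groups overlapped through non-HCC mouse 3. Its TMM log2 level averaged 11.59 ± 0.50 across the 8 mice with HCC against 12.56 ± 0.48 across the 5 without (SD), with 5 of 8 HCC mice below all non-HCC mice (exact permutation test, two-sided p = 0.00777, not adjusted). edgeR gave a log2 fold change of -0.97 (SE 0.29, adjusted p = 0.0420) on the TMM scale and -0.33 (SE 0.64, adjusted p = 0.898) on the spike-in scale. The call on the TMM scale was the weaker one of the cluster. It held in 6 of 13 fits that left out 1 mouse each, was lost without HCC mouse 1 or 7 or any single non-HCC mouse (adjusted p up to 0.107), and was also lost with the alike HCC libraries summed (adjusted p = 0.0952).

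Summed over both members, the cluster on chromosome 6 took 260.0 to 475.0 of every 1000000 miRNA UMIs with HCC and 801.0 to 1081 without. Part of this share depends on what else fills the library, since miR-122-5p alone took 2.20% to 42.7% of the UMIs with HCC and 0.180% to 0.420% without. With miR-122-5p left out of the total, the sum was 402.0 to 585.3 per 1000000 UMIs with HCC and 804.4 to 1084 without, and the groups still did not overlap. In plasma, fewer cells that release a miRNA and less of it released per cell cannot be told apart.

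**Figure D2:**
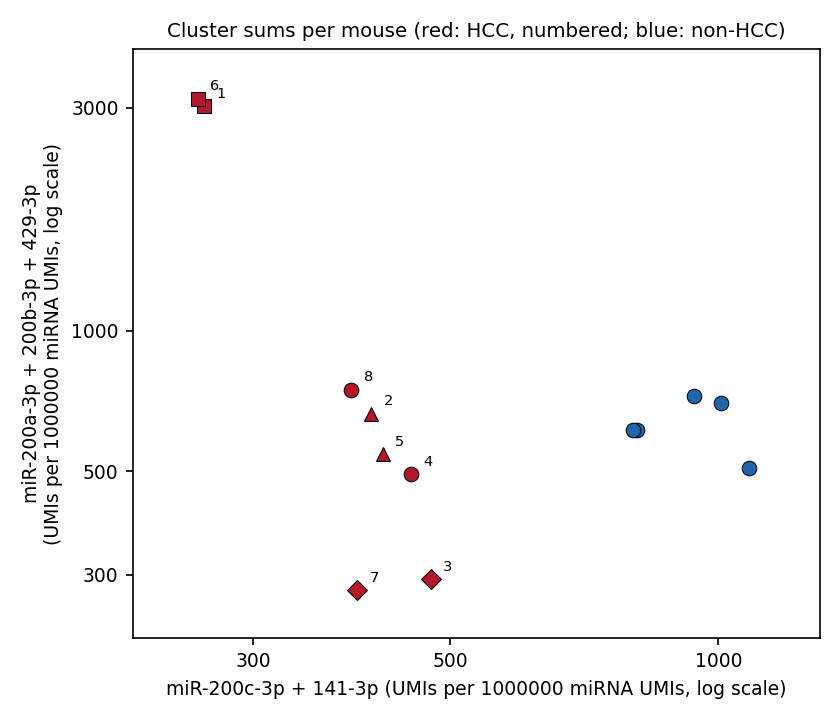
UMIs per 1000000 miRNA UMIs of the chromosome 4 cluster (vertical) are plotted against those of the chromosome 6 cluster (horizontal) for each mouse, both on log scales, with HCC mice in red and numbered and non-HCC mice in blue. The groups were separate along the horizontal axis, and HCC mice 1 and 6 stood apart on the vertical axis, at 3025 and 3134, with all others at 747.5 or below.

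Platelet and leukocyte markers were also lower in HCC mice on the TMM scale. The red cell sum was lower on average too, and the groups overlapped there only through HCC mice 3 and 7. Of the 5 platelet and leukocyte miRNAs 4 were called lower in HCC mice on the TMM scale, as were 1.86% of all miRNAs tested, and their summed log2 level was 17.09 to 18.09 with HCC and 18.13 to 19.36 without. The red cell sum was 19.45 to 22.24 with HCC and 21.87 to 22.30 without on the same scale, with 0 of 6 called by edgeR. The mean difference, HCC minus non-HCC, was -1.012 for the red cell sum and -1.165 for the platelet and leukocyte sum. On the spike-in scale 0 of the 5 platelet and leukocyte miRNAs were called. The part of these cell types in the result was not tested.

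mmu-miR-200a-3p, the most abundant member of the chromosome 4 cluster in HCC mice, had 15449, 4163, 1596, 3212, 2727, 15703, 1419 and 3407 UMIs in HCC mice 1 to 8, and 2435, 3994, 2519, 2828 and 3162 UMIs in non-HCC mice 1 to 5. HCC mice 1 and 6 were far above all others, and HCC mice 3 and 7 were below every non-HCC mouse. edgeR gave a log2 fold change of 1.72 (SE 0.77, adjusted p = 0.211) on the spike-in scale and 1.16 (SE 0.60, adjusted p = 0.297) on the TMM scale, and without HCC mice 1 and 6 the value on the TMM scale was -0.22 (adjusted p = 0.843).

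mmu-miR-200b-3p, which carries the same seed as miR-200c-3p, had 7292, 2920, 629, 1272, 2567, 6795, 853 and 1715 UMIs in HCC mice 1 to 8, and 1942, 3022, 1780, 3016 and 1918 UMIs in non-HCC mice 1 to 5. The order of the HCC mice was much like that of miR-200a-3p, with mice 1 and 6 at the top and mice 3 and 7 at the bottom. The log2 fold change was 1.25 (SE 0.76, adjusted p = 0.410) on the spike-in scale and 0.54 (adjusted p = 0.718) on the TMM scale by edgeR, and -0.56 on the TMM scale without HCC mice 1 and 6.

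mmu-miR-429-3p had 8151, 2373, 846, 1720, 2311, 8009, 1022 and 1989 UMIs in HCC mice 1 to 8, and 2311, 3050, 2124, 3613 and 1997 UMIs in non-HCC mice 1 to 5. It repeated the pattern of its 2 neighbours. Its log2 fold change was 1.15 (SE 0.73, adjusted p = 0.437) on the spike-in scale and 0.49 (adjusted p = 0.745) on the TMM scale by edgeR, and -0.71 on the TMM scale without HCC mice 1 and 6.

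Summed over its 3 members, the chromosome 4 cluster took 3025 and 3134 UMIs per 1000000 miRNA UMIs in HCC mice 1 and 6, against 278.5 to 747.5 in the other HCC mice and 506.9 to 726.0 in mice without HCC. The range within the HCC group thus enclosed that of the non-HCC group. In HCC mice 1 and 6 miR-122-5p took 41.0% and 42.7% of the UMIs, the largest shares of the 13 mice, while mice 2 and 5, with 29.2% and 28.3%, had 663.7 and 544.1 UMIs of the cluster per 1000000. With miR-122-5p left out of the total, the sum was 5126 and 5469 per 1000000 UMIs in HCC mice 1 and 6. It was then 938.0, 759.0 and 909.1 in HCC mice 2, 5 and 8, above the 508.0 to 728.4 of mice without HCC. HCC mice 3, 4 and 7 had 300.6, 545.4 and 285.4, so the HCC range still enclosed the non-HCC range. The summed liver markers reached 18.98 to 22.55 on the TMM log2 scale with HCC and 16.57 to 17.12 without, with 4 of 5 called higher on both scales. Over all miRNAs tested, 7.51% were called higher on the spike-in scale and 8.26% on the TMM scale. The part of the liver markers in the level of the chromosome 4 cluster was not tested.

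The ratio of a chromosome 4 member to its seed partner on chromosome 6 needs no scaling, since both counts come from the same library. The ratio of miR-200b-3p to miR-200c-3p UMIs was 9.92, 1.52, 0.497, 0.784, 1.60, 10.9, 0.520 and 1.26 in HCC mice 1 to 8, and 0.528, 0.461, 0.395, 0.534 and 0.357 in non-HCC mice 1 to 5. It exceeded every non-HCC value in 6 of 8 HCC mice, and in mice 3 and 7 it lay within the non-HCC range. The log2 ratio averaged 0.76 ± 1.74 with HCC (SD, n = 8) and -1.15 ± 0.26 without (SD, n = 5), which differ by 1.91 (exact permutation test, two-sided p = 0.0303, adjusted over the 2 ratios p = 0.0606). The difference missed the threshold after adjustment. With the alike HCC libraries summed it was 1.76 (exact permutation test, p = 0.0238, adjusted p = 0.0476), and without HCC mice 1 and 6 it was 1.04 (exact permutation test, p = 0.0260, adjusted p = 0.0519).

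The ratio of miR-200a-3p to miR-141-3p UMIs, the pair with the other seed, was 7.87, 1.07, 0.432, 0.793, 0.641, 8.22, 0.473 and 1.47 in HCC mice 1 to 8, and 0.472, 0.619, 0.649, 0.354 and 0.325 in non-HCC mice 1 to 5. HCC mice 1 and 6 again stood far above all others. The log2 ratio was higher by 1.53 in the mean of HCC mice (exact permutation test, two-sided p = 0.0754, adjusted p = 0.0754), with the same mice 3 and 7 lowest among HCC mice. With the alike libraries summed the difference was 1.47 (exact permutation test, p = 0.0476), and without HCC mice 1 and 6 it was 0.67 (exact permutation test, p = 0.106).

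**Figure D3:**
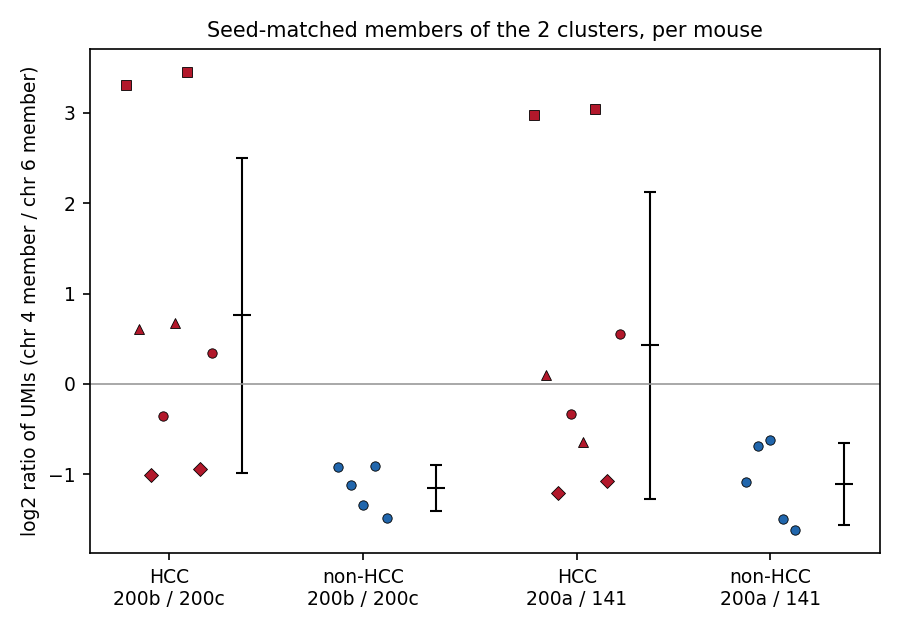
The log2 ratio of UMIs of a chromosome 4 member to its seed partner on chromosome 6 is plotted for each mouse, with the mean ± SD beside each group. For miR-200b-3p over miR-200c-3p the non-HCC mice lay at -1.15 ± 0.26, while HCC mice 1 and 6 (squares) stood above 3 and 6 of 8 HCC mice exceeded every non-HCC value.

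mmu-miR-203-3p, the keratinocyte miRNA, had 4023, 6133, 1590, 6428, 7329, 3748, 1608 and 3128 UMIs in HCC mice 1 to 8, and 2424, 2985, 3787, 7620 and 2982 UMIs in non-HCC mice 1 to 5. The groups overlapped over most of their range, with HCC mice 3 and 7 again lowest. edgeR gave a log2 fold change of 1.17 (SE 0.75, adjusted p = 0.444) on the spike-in scale and 0.17 (adjusted p = 0.943) on the TMM scale.

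mmu-miR-205-5p, the basal epithelial miRNA, had 9033, 6226, 6015, 9178, 6142, 7367, 8719 and 10269 UMIs in HCC mice 1 to 8, and 14320, 9575, 22994, 68774 and 5484 UMIs in non-HCC mice 1 to 5. The HCC mice were close together, the non-HCC mice spread widely, and non-HCC mouse 5 had the fewest UMIs of all 13. Its TMM log2 level averaged 12.95 ± 0.26 across the 8 mice with HCC against 13.94 ± 1.41 across the 5 without (SD) (exact permutation test, two-sided p = 0.0536, not adjusted). edgeR gave a log2 fold change of -1.54 (SE 0.45, adjusted p = 0.0407) on the TMM scale and -0.91 (SE 0.61, adjusted p = 0.478) on the spike-in scale, and without non-HCC mouse 4 the value on the spike-in scale was 0.006. Without non-HCC mouse 4 the TMM value was -0.81 (adjusted p = 0.219). The call on the TMM scale held in 8 of 13 fits without 1 mouse each, was lost without HCC mouse 2, 3 or 5 or non-HCC mouse 3 or 4, and was also lost with the alike HCC libraries summed (adjusted p = 0.143).

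Counted over the members, edgeR called 0 of 7 on the spike-in scale, where it called 7.51% of the 1452 miRNAs tested, all of them higher in HCC mice. At an unadjusted p of 0.05 the count was 1 of 7, miR-200a-3p, against 19.5% of all miRNAs tested, and DESeq2 with spike-in size factors also called 0. The median log2 fold change of the 7 members on this scale was 1.15, against 0.78 over all miRNAs tested. With TMM edgeR called 3 of 7, namely miR-200c-3p, miR-141-3p and miR-205-5p, all lower, where it called 10.1% of all miRNAs tested and 1.86% as lower against 8.26% as higher. The median log2 fold change of the members there was 0.17, against 0.26 over all. DESeq2 with its own size factors also called 3 of 7 as lower, against 3.37% of all miRNAs tested.

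**Figure D4:**
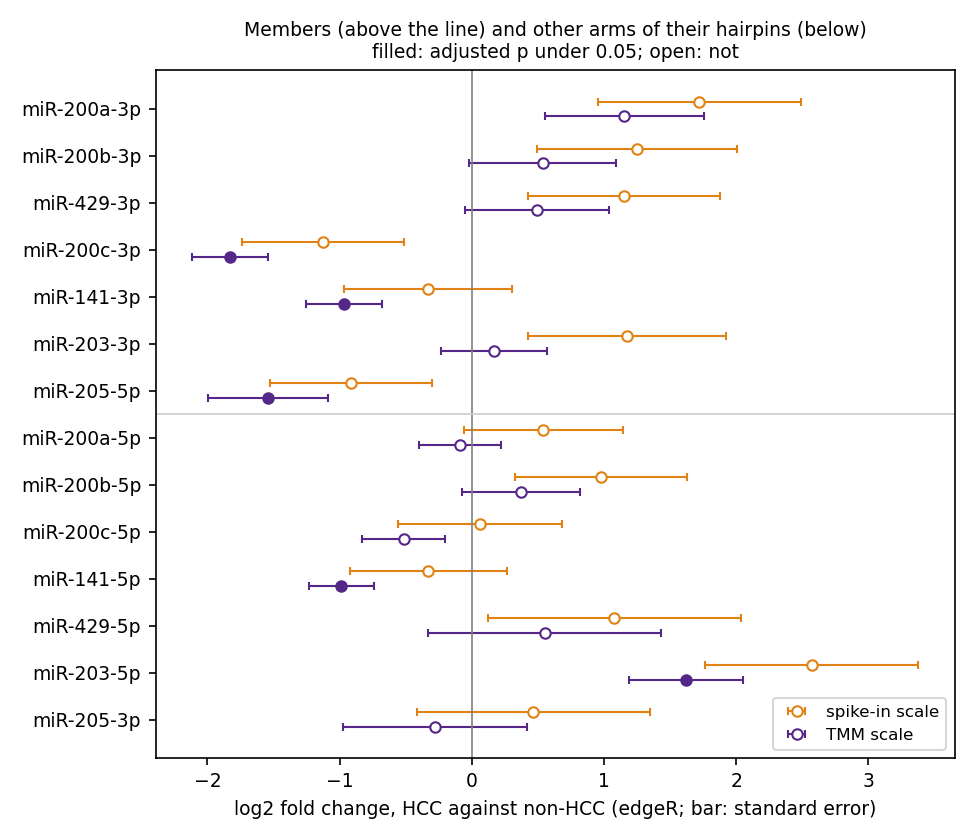
Log2 fold changes of HCC against non-HCC mice by edgeR are plotted with their standard errors on the spike-in scale (orange) and the TMM scale (purple), members above the line and the other arms of their hairpins below. Filled points passed an adjusted p of 0.05, which none did on the spike-in scale and 5 did on the TMM scale.

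The other arm of each hairpin, which is cut from the same precursor and usually degraded, was listed and tested for all 7. On the spike-in scale edgeR called 0 of 7, against 7.51% of all miRNAs tested. The count at an unadjusted p of 0.05 was 1, against 19.5%, and DESeq2 with spike-in size factors called 1, against 183 of all 1452. With TMM edgeR called 2, miR-141-5p as lower and miR-203-5p as higher. Of all miRNAs tested, 1.86% were called lower there and 8.26% higher. The median log2 fold change of the 7 other arms was 0.54 on the spike-in scale and -0.09 on the TMM scale.

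mmu-miR-141-5p had 17 to 55 UMIs in HCC mice (median 28.5) and 55 to 75 in non-HCC mice (median 66.0). Its TMM log2 level averaged 4.99 ± 0.36 across the 8 mice with HCC against 5.99 ± 0.06 across the 5 without (SD), and as with miR-200c-3p all 8 HCC mice lay below all 5 non-HCC mice (exact permutation test, two-sided p = 0.000777, not adjusted). Of the 1452 miRNAs tested, 1.17% were separated in this way on the TMM scale. The log2 fold change by edgeR was -0.99 (SE 0.25, adjusted p = 0.0204) on the TMM scale and -0.33 (SE 0.59, adjusted p = 0.889) on the spike-in scale. The TMM call was lost without non-HCC mouse 2 (adjusted p = 0.0550) and with the alike HCC libraries summed (adjusted p = 0.0510), and it held in the other 12 fits without 1 mouse each. The fourth arm of the chromosome 6 cluster, miR-200c-5p, was not called on the TMM scale (log2 fold change -0.52, SE 0.31, adjusted p = 0.393 by edgeR), and its value on the spike-in scale was 0.06.

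mmu-miR-203-5p had 29 to 215 UMIs in HCC mice (median 112.5) and 27 to 55 in non-HCC mice (median 44.0). In 7 of 8 HCC mice the TMM level exceeded every non-HCC value, at a log2 level of 6.73 ± 0.87 (SD, n = 8) against 5.27 ± 0.52 (SD, n = 5) (exact permutation test, two-sided p = 0.0101, not adjusted). edgeR gave a log2 fold change of 1.62 (SE 0.43, adjusted p = 0.0277) on the TMM scale and 2.57 (SE 0.81, adjusted p = 0.0538) on the spike-in scale. The TMM call held in 6 of 13 fits without 1 mouse each and was lost without HCC mouse 1, 4 or 8 or non-HCC mouse 2, 3, 4 or 5 (adjusted p up to 0.0919). With the alike HCC libraries summed, edgeR called miR-203-5p on the TMM scale (adjusted p = 0.0395) and on the spike-in scale (adjusted p = 0.0479). In these fits 94 and 97 of the 1401 miRNAs tested were called higher. Its partner arm miR-203-3p did not pass the test on either scale, and the ratio of 3p to 5p UMIs was 25.9 to 54.8 with HCC and 44.1 to 262.8 without, a difference that was not tested.

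Over the 13 mice on the TMM scale, the 3 members of the chromosome 4 cluster varied together, with Pearson's r of 0.91 to 0.98 (permutation p of 1e-05 to 0.0001, adjusted over 21 pairs 0.00021 to 0.000525) and Spearman's rho of 0.77 to 0.98 (permutation p of 1e-05 to 0.00267). The permutations could give no p below 1e-05. Without the 2 mice farthest from the median r was 0.74 to 0.97, and with the alike HCC libraries summed it was 0.88 to 0.98 over 10 libraries. The 13 libraries are not fully independent because of the alike pairs, and cluster members are cut from neighbouring hairpins.

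The HCC and non-HCC groups were apart for miR-200c-3p, so pairs of members that involve the chromosome 6 cluster were read within the HCC group. Within the 8 HCC mice miR-200c-3p and miR-141-3p gave r = 0.84 (exact permutation p = 0.0112, adjusted p = 0.0586) and rho = 0.90 (exact permutation p = 0.00456), and r = 0.71 without the 2 farthest mice. Between the 2 clusters r lay between -0.71 and -0.40 within the 8 HCC mice (exact permutation p of 0.0510 to 0.304, adjusted 0.214 to 0.444) and rho between -0.52 and -0.31 (exact permutation p of 0.197 to 0.462). Without the 2 farthest mice those 6 values of r turned positive, at 0.17 to 0.62. The negative values thus rested on the 2 mice left out, HCC mice 1 and 6, which form an alike pair. The 8 HCC libraries are not fully independent because of the alike pairs, and these p-values do not allow for that. The non-HCC group was too small for a correlation.

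By likeness of the TMM log2 level over the 13 mice, among 687 miRNAs with enough UMIs and given as a description, the sum of the chromosome 4 cluster was closest to miR-708-5p (r = 0.93), miR-671-5p (r = 0.87) and miR-151-3p (r = 0.86). The sum of the chromosome 6 cluster was closest to let-7g-5p (r = 0.95), miR-98-5p (r = 0.95) and miR-142a-3p (r = 0.94), the last of which is typical of blood cells. The member miR-203-3p was closest to miR-199a-3p/199b-3p (r = 0.88), miR-199a-5p (r = 0.82) and miR-99a-3p (r = 0.79). For miR-205-5p the closest were miR-10b-5p (r = 0.94), miR-10b-3p (r = 0.81) and miR-34b-3p (r = 0.68). These points share the library and its scaling factor, and for the chromosome 6 cluster also the difference between groups.

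Of 12 other miRNAs typical of epithelium, 11 were listed and 10 were tested. edgeR called 0 of 10 on both scales, against 7.51% of all miRNAs tested on the spike-in scale and 10.1% on the TMM scale. The count at an unadjusted p of 0.05 was 1 on the spike-in scale and 2 on the TMM scale, against 19.5% and 21.6%. DESeq2 with its own size factors called 1 as lower, against 3.37% of all miRNAs tested. The median log2 fold change of these 10 was 0.51 on the spike-in scale and -0.25 on the TMM scale. The 2 with the highest levels were miR-215-5p, an intestinal and p53-responsive miRNA, and miR-375-3p, found in endocrine and gut epithelium. miR-215-5p had a log2 fold change of -0.003 on the spike-in scale (adjusted p = 0.999 by edgeR) and -0.56 on the TMM scale (adjusted p = 0.0963 by edgeR). On the TMM scale all 8 HCC mice lay below all 5 non-HCC mice for miR-215-5p (exact permutation test, two-sided p = 0.00155, not adjusted), as for 1.17% of the 1452 miRNAs tested. There edgeR called miR-215-5p without HCC mice 1 and 6 (adjusted p = 0.0302), where 3.13% of miRNAs tested were called lower, and in 4 of 13 fits without 1 mouse each. miR-375-3p had a log2 fold change of 0.24 on the spike-in scale (adjusted p = 0.914 by edgeR) and -0.23 on the TMM scale (adjusted p = 0.788 by edgeR).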

How the data were processed

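Small RNA of C3H mouse plasma was sequenced with UMIs, and the deposited values are UMI counts per mature miRNA and spike-in. The authors aligned reads to GRCm38, and the submitters' processing notes name Bowtie2 and FastQC. The aligner's version is not given in the sources used here. The table held no value from 1 to 9, so that a 0 may stand for up to 9 UMIs. The labels call each C3H sample a separate mouse. A further 53 columns, of F2 mice, matched no label and were not used.

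Counts were analysed in R 4.3.3 with edgeR 4.0.16 (quasi-likelihood test, Benjamini-Hochberg adjustment), with library sizes from the mean of the spike-ins UniSP2 and UniSP4. The test covered miRNAs that reached 5 UMIs in 5 mice or more, and a call was made at an adjusted p of 0.05. Log2 levels used a pseudocount of 1 UMI. Alternatives were TMM, UniSP4 alone, DESeq2 1.42.0, limma 3.58.1, other filters, each mouse left out and a replicate block. Sums of alike libraries and fits without HCC mice 1 and 6 were added after seeing the data. On simulated data for this comparison on the spike-in scale, 52.4% of 147 miRNAs changed 8-fold were recovered among 1115 tested, with 0% false calls. The simulated libraries were independent and their scales were known, so alike pairs and error in the spike-ins were not covered. The TMM scale was not simulated. Single values were compared by exact permutation tests over mice, and correlations by 100000 permutations or exactly (scipy 1.17.1). The members and lists were chosen with earlier results of these data known. Members and called other arms were named, with the 3 most alike miRNAs of each pattern and, for epithelial miRNAs, the 2 of highest level where none was called. Intervals cover counting error and spread between these mice only.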

Additional observations from a re-analysis of the deposited data

How the results depend on the processing

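The spike-in scale left 0 members called, against 3 under TMM and under DESeq2 with its own size factors, and, by alternatives added after seeing the data, 1 under TMM with alike libraries summed and 2 under TMM without HCC mice 1 and 6. These member calls were all lower in HCC mice. In the same settings, in that order, 1.86%, 3.37%, 0.571% and 3.13% of all miRNAs tested were called lower. Over all miRNAs the count on the spike-in scale by edgeR was 109, against 44 by limma, 222 by DESeq2 with its own size factors, 183 by DESeq2 with spike-in size factors, and 44 to 157 without 1 mouse each. For the other arms the count was 0, against 2 under TMM and under DESeq2 with its own size factors, 1 under UniSP4 alone, DESeq2 with spike-in size factors, no filter, a filter of 20 UMIs and both sums of alike libraries, and 0 to 1 without 1 mouse each. For epithelial miRNAs DESeq2 with its own size factors called 1. The ratio of miR-200b-3p to miR-200c-3p passed with alike libraries summed (1.76) and without HCC mouse 1, 3, 6 or 7, and it ranged from 1.53 to 2.17 without 1 mouse each. The ratio of miR-200a-3p to miR-141-3p passed with alike libraries summed (1.47) and without HCC mouse 3 or 7, and ranged from 1.16 to 1.76. Pairs of members past the threshold over all 13 mice, both groups pooled, were 4 of 21, against 9 on the spike-in scale and 0 within the 8 HCC mice without the 2 farthest. Under TMM without HCC mice 1 and 6 the log2 fold change turned to -0.22 for miR-200a-3p, -0.56 for miR-200b-3p, -0.71 for miR-429-3p and -0.012 for miR-203-3p. On the spike-in scale miR-141-3p turned to 0.15 without non-HCC mouse 5, with -0.70 to 0.15 over all mice left out, and miR-205-5p to 0.006 without non-HCC mouse 4, with -1.13 to 0.006. The cause of these shifts was not tested.

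The labels number mice 1 to 5 in both groups. The numbers did not pair the mice: deviations of same-numbered mice correlated at 0.218, 0.141, 0.004, -0.174 and 0.173, and 1 of 5 HCC mice correlated best with its own number. With the replicate block 146 miRNAs, 0 members and 1 other arm were called.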
